A study of Bos taurus with 16 samples.

Results

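ZNF genes were taken as those array genes whose name, or whose symbol in brackets in the probe description, was ZNF followed by a number. There were 196 such genes, represented by 203 of the 21475 probes of a bovine oligonucleotide array, and where a gene had 2 probes, as 7 did, the one that was brighter over all samples stood for it. The arrays compared CD14+ cells, a fraction of monocytes and macrophages, from the endometrium and from the blood of 4 pregnant cows. The cows were at days 164, 239, 242 and 248 of pregnancy (animals 1 to 4), and the question was how the cells of the pregnant uterus differ from those in the circulation. Uterus and cardiac blood came from an abattoir, CD14+ cells were sorted by flow cytometry, and their RNA was amplified and labeled with Cy3 or Cy5. The cells of both tissues of an animal shared each array, every animal was hybridized on 2 arrays, and these carried opposite dyes in animals 1, 2 and 4 but the same dyes in animal 3. There was no nonpregnant group, so pregnancy was common to both tissues.

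The name ZNF is given to human genes for proteins with zinc fingers, and their cattle counterparts carry it too. In most of them the fingers are of the C2H2 kind, short loops folded around a zinc ion that stand in tandem and read DNA. Many also carry a KRAB domain, which recruits TRIM28 (KAP1) and, through it, the histone methyltransferase SETDB1 and heterochromatin proteins to silence transposable elements and genes. Others act as sequence-specific activators or as partners of chromatin enzymes, and some work on RNA, ribosomes or ubiquitin. The name is one of structure and not of a shared pathway.

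Of the 196 names, 158 could be paired with a current gene in a RefSeq table of assembly ARS-UCD2.0, and in 48 of these the current symbol differs. In 29 it is of another kind, such as ZBTB21 for ZNF295, ADNP2 for ZNF508 and ZPR1 for ZNF259. In most of the others it is a different ZNF symbol, such as ZNF814 for ZNF416, ZNF33B for ZNF37A and ZNF48 for ZNF553. A few have only a locus number, as ZNF383 and ZNF530 do. All are named here as on the array. There were 6 identifiers that each covered a pair of array names, among them ZNF32 with ZNF239, and for those pairs the gene measured by each probe is uncertain. The probes were short stretches of at most 60 bases, and no 2 ZNF probes shared a run of 20 bases. The linker between neighboring C2H2 fingers is the best conserved part of the family, and at the level of DNA it can be searched by its codons, 14 bases with any base at the last position of each codon. On both strands, this linker motif was in 3 of the 203 ZNF probes (1.48%) and in 5 of all 21475 probes (0.0233%). The 3 probes are shown with the motif in capitals, because they hold a sequence that recurs between fingers across the family.
ZNF652: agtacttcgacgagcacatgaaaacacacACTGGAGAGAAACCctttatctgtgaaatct
ZNF624: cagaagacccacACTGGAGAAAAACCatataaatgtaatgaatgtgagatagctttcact
ZNF568: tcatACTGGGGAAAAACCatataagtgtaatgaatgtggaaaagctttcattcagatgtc

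Their mean log2 ratios of endometrium over blood were 0.04 for ZNF652, 0.69 for ZNF624 and 0.52 for ZNF568, and none passed the test. The probes of the genes that stood furthest from 0 in either direction are shown next, since the values below rest on them, and they held no such motif. ZNF205 is shown with both of its probes, which gave different ratios, the brighter one first.
ZNF623: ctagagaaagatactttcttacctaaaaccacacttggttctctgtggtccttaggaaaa
ZNF462: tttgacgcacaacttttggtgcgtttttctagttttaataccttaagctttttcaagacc
ZNF295: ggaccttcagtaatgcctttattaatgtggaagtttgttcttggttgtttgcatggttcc
ZNF205, first probe: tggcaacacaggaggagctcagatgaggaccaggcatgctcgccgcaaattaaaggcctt
ZNF205, second probe: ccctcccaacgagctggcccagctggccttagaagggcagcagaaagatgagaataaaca

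The values used were those of the authors' table, log2 values normalized over the 16 channels (each a tissue of an animal in 1 dye on 1 array). For a gene to be tested, 4 or more of the 8 channels of either tissue had to show its probe well above background. Of the 196 genes, 172 were tested (87.8%, against 77.5% of all probes), 108 were well above background in all channels of both tissues, and 12 in none. The 24 genes not tested included, from the list of regulators described below, ZNF366, known in dendritic cells as DC-SCRIPT, and ZNF521, a regulator of hematopoietic progenitors. The percentage of ZNF genes well above background ranged from 76.8% to 84.4% in the blood channels of the 4 animals, and from 64.3% to 90.1% in their endometrial channels, with the lowest value in animal 3 and the highest in animal 1. In these bulk samples, fewer cells of a type and less RNA per cell cannot be told apart.

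Libraries and markers of cell types differed in ways that bear on all ratios. Over all 16653 probes tested, the median log2 ratio was -0.14 in the authors' table and -0.02 when the scanner intensities were normalized anew with an offset of 50, so directions are read against that shift. None of the 7 defining markers of CD14+ myeloid cells was called, all 7 were highest in animal 1 in both tissues (summed level 12.84 to 17.67 on the log2 scale in endometrium and 12.05 to 18.02 in blood), and CD14 itself was at log2 values of 14.04, 6.07, 9.5 and 7.38 in the endometrium and 16.12, 5.76, 8.85 and 6.94 in the blood of animals 1 to 4. Of the 7 myeloid markers, 4 had a log2 ratio above 0 and 3 one below 0. FCGR1A, CSF1R and CD68 had a limma p of 0.05 or less before adjustment and a fold over 2, all toward the endometrium (7.98% of all probes tested). FCGR1A was well above background in only 2 of 8 blood channels, so the size of its ratio is not measured. Of 9 trophoblast markers, 8 were called higher in the endometrium, where the summed level of the 9 was 15.62 to 17.35 on the log2 scale against 11.47 to 13.19 in blood. The other name on that list, PAG1, was higher in blood in 3 of 4 animals (log2 ratio -2.10, limma's adjusted p = 0.230). Its probe was picked by symbol alone, and whether it measures a placental gene was not checked. The mean of PAG1 in blood, 11.10, was the highest of the list in that tissue. The blood sum thus rests largely on a probe of uncertain identity. Of 10 epithelial markers 6 were called higher in the endometrium (15.29 to 18.49 against 10.86 to 13.15), as were 2 of 7 stromal markers tested (10 to 18.19 against 10.17 to 13.37, over the 8 on the array). Of 4 granulocyte markers, 2 were called higher in blood (7.10 to 9.63 in endometrium against 8.83 to 14.75 in blood). None was called among 7 markers of B cells (13.37 to 15.82 against 14.45 to 17.11) or among 9 of T and natural killer cells (11.95 to 17.33 against 9.53 to 16.24). All 7 markers of B cells had a log2 ratio below 0. Of these, CD79B, MS4A1 and CD22 had a limma p of 0.05 or less before adjustment and a fold over 2 (8.05% of all probes tested, toward blood). In the endometrium, CD79B was well above background in 2 of 8 channels and MS4A1 in 4 of 8, so the sizes of their ratios are not measured. Of all these lists, 1 trophoblast marker was at background in all blood channels and no other marker was at background in all channels of a tissue. The part of these cells in the ZNF values was not tested.

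A gene was called at an adjusted p of at most 0.05 (limma, Benjamini-Hochberg over all probes tested) and a fold change over 2. Of the 172 ZNF genes tested, 2 were called, both higher in the endometrium (1.16%), where 1.35% of all probes tested were called in either direction and 1.23% as higher in the endometrium. No ZNF gene was called higher in blood, where the background was 0.12%. A looser reading, termed nominal here, took genes with a fold over 2 whose p before adjustment was 0.05 or less. There were 25 such ZNF genes (14.5%, background 16%), of which 12 were higher in endometrium (6.98%, background 7.98%) and 13 in blood (7.56%, background 8.05%). These shares lay close to the background, so the family was not marked by a larger number of differences than the array at large.

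The first gene called was ZNF623, a zinc finger protein of unsettled function. Its log2 values were 6.10, 7.18, 6.07 and 7.02 in the endometrial cells of animals 1 to 4 and 2.62, 2.65, 2.43 and 3.51 in the blood cells. All endometrial values lay above all blood values, and 8 of 8 endometrial but 0 of 8 blood channels were well above background. The measured means were 6.59 ± 0.59 in endometrium and 2.80 ± 0.48 in blood (SD, n = 4), and the log2 ratio was 3.79 ± 0.46 (SE) with limma's adjusted p = 0.0138. Because the blood value was not well above background, the ratio gives only a bound. On the scale of the authors' table, the mean was at least 3.64-fold higher in the endometrium. The bound compares the endometrial mean with the lowest value that was well above background in each blood channel, and dye bias of animal 3 remains in it. In the scanner intensities normalized with the offset of 50 the log2 ratio was 0.53, with an adjusted p of 0.319 from limma. The bound thus holds for the authors' scale only and is not a lower limit on the RNA.

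ZNF462, the second, codes for a large nuclear protein with many fingers that is known from development and chromatin organization. It stood at 8.65, 10.18, 8.67 and 8.16 in the endometrium of animals 1 to 4 and at 3.02, 7.12, 6.31 and 4.12 in their blood. The groups did not overlap, although the blood values ranged more widely than the endometrial ones. The log2 ratio was 3.77 ± 0.63 (SE), with limma's adjusted p = 0.0463. The probe was well above background in all 8 endometrial channels but in blood only in the 4 channels of animals 2 and 3, whose log2 ratios were 3.06 and 2.36. The ratios of animals 1 and 4, 5.63 and 4.04, were set against blood values not well above background, so the mean ratio is not a measured size. With the offset of 50, the log2 ratio was 1.40 and limma's adjusted p 0.235. Both calls were lost when any 1 of the 4 animals was left out, with log2 ratios of 3.54 to 3.89 for ZNF623 and 3.15 to 4.24 for ZNF462, each fit then having 3 animals.

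**Figure D1:**
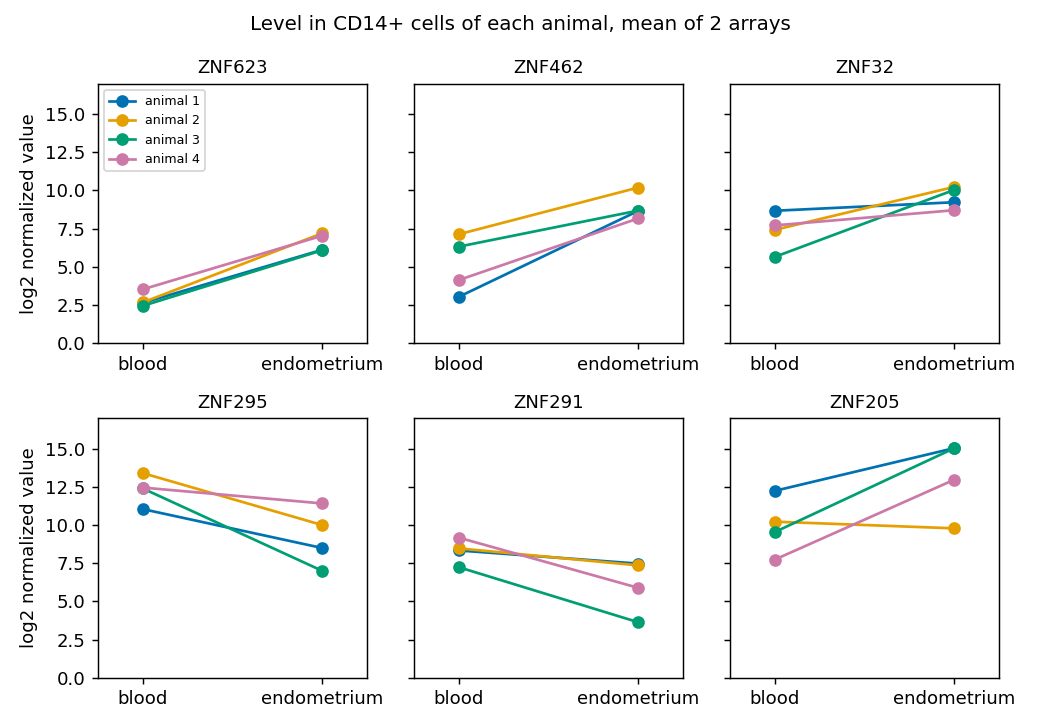
Log2 normalized values (y axis) in blood and endometrial CD14+ cells (x axis) of 6 ZNF genes, each point the mean of 2 arrays of an animal and each line joining the tissues of an animal. Lines of ZNF623 and ZNF462 rise in 4 of 4 animals, those of ZNF295 and ZNF291 fall in 4 of 4, and ZNF205 rises in 3 of 4.

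The other genes that were nominal and higher in the endometrium in all 4 animals did not pass the adjustment. ZNF32, a C2H2 protein, was at 9.22, 10.23, 10.03 and 8.70 in the endometrium and at 8.66, 7.41, 5.64 and 7.71 in blood. The groups did not overlap, and the log2 ratio was 2.19 ± 0.72 (SE, limma's adjusted p = 0.232). ZNF239, which shares its identifier on the array, had a log2 ratio of -0.23. ZNF382, a KRAB repressor, and ZNF613 likewise had no overlap between tissues, with log2 ratios of 1.99 and 1.73, and both were led by animal 3, where the ratios were 4.92 and 3.68. In the remaining animals, they were between 0.61 and 1.53 for ZNF382 and between 0.24 and 1.81 for ZNF613. Without animal 3, the log2 ratios were 1.02 for ZNF382, 1.08 for ZNF613 and 1.46 for ZNF32.

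ZNF219, a partner of SOX9 in cartilage, and ZNF565 varied least among these genes. The log2 ratios of ZNF219 in animals 1 to 4 were 1.94, 2.02, 1.58 and 0.77, and those of ZNF565 were 0.88, 1.81, 1.02 and 1.78. Their means were 1.58 ± 0.47 and 1.37 ± 0.46 (SE, limma's adjusted p of 0.206 and 0.237). The levels overlapped between tissues in both genes, although every animal was higher in the endometrium. ZNF219 stood at 14.46 in the endometrium of animal 1 but at 12.52 in the blood of the same animal, above the 11.63 to 11.88 of the other endometrial samples. ZNF512, a protein of pericentromeric chromatin, and ZNF19 had log2 ratios of 1.33 and 1.30, and in animal 4 they were 0.10 and 0.06. ZNF416 was well above background in 4 endometrial channels, those of animals 1 and 4, and in 1 blood channel, so its log2 ratio of 1.60 is set against a blood value that was mostly at background. It was 1.06 without animal 4 and 0.37 with the offset of 50.

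On the side of blood, ZNF295, now ZBTB21, a repressor of the BTB kind, had the log2 ratio furthest from 0. It stood at 8.51, 10.01, 7.02 and 11.42 in the endometrium of animals 1 to 4 and at 11.05, 13.41, 12.41 and 12.46 in their blood. Blood was the higher tissue in 4 of 4 animals, while the endometrial value of animal 4 lay above the blood value of animal 1. The log2 ratio was -3.10 ± 0.73 (SE), and limma's adjusted p = 0.141 did not pass. The probe was bright in both tissues, and with the offset of 50 the log2 ratio was -2.56.

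ZNF291, known also as SCAPER for its link to cyclin A, was at 7.48, 7.36, 3.64 and 5.89 in the endometrium and at 8.34, 8.48, 7.24 and 9.18 in blood. It was lower in the endometrium in 4 of 4 animals (log2 ratio -2.22 ± 0.64, SE, limma's adjusted p = 0.196). The endometrial probe of animal 3 was not well above background on either array. The same was true of ZNF336 (GZF1, a protein induced by the growth factor GDNF), ZNF263 (a KRAB and SCAN protein), ZNF508 (ADNP2) and ZNF618 (a binder of UHRF2). In these 5 of the 13 genes, animal 3 was at background in the endometrium while all other endometrial channels were well above it. Their log2 ratios ranged from -2.22 to -1.67 over 4 animals and from -1.75 to -1.08 without animal 3. With the offset of 50 they were between -0.76 and -0.54. Over the 172 genes tested, animal 3 alone was at background in the endometrium in 24 (13.95%), against 7.30% of all probes tested, so the values of animal 3 in these genes are upper limits of a low signal rather than measured levels.

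ZNF304, a KRAB protein that recruits silencing complexes, was at 13.14, 13.12, 12.53 and 14 in the endometrium and at 13.82, 15.11, 14.73 and 14.77 in blood, with log2 ratios of -0.68, -1.99, -2.20 and -0.78 in animals 1 to 4. Its mean was -1.41 on both scales (limma's adjusted p of 0.253 and 0.262). ZNF432 had a log2 ratio of -1.48 with a value of -0.05 in animal 4. ZNF410, an activator known for its control of CHD4, had a log2 ratio of -1.31, and CHD4 itself one of -0.42 (limma's adjusted p of 0.272 and 0.798). CHD4 had ratios of -2.14, 0.43, -1.07 and 1.12 in animals 1 to 4. Its endometrial probe in animal 3 was not well above background, and a link between the 2 genes was not tested. ZNF41 had a log2 ratio of -1.61 at low signal in both tissues, which was -0.91 without animal 3 and -0.25 with the offset of 50. All 25 genes with a p of 0.05 or less before adjustment had a fold over 2, so none lay just under that threshold, and the nearest above it were ZNF19, ZNF410 and ZNF512.

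**Figure D2:**
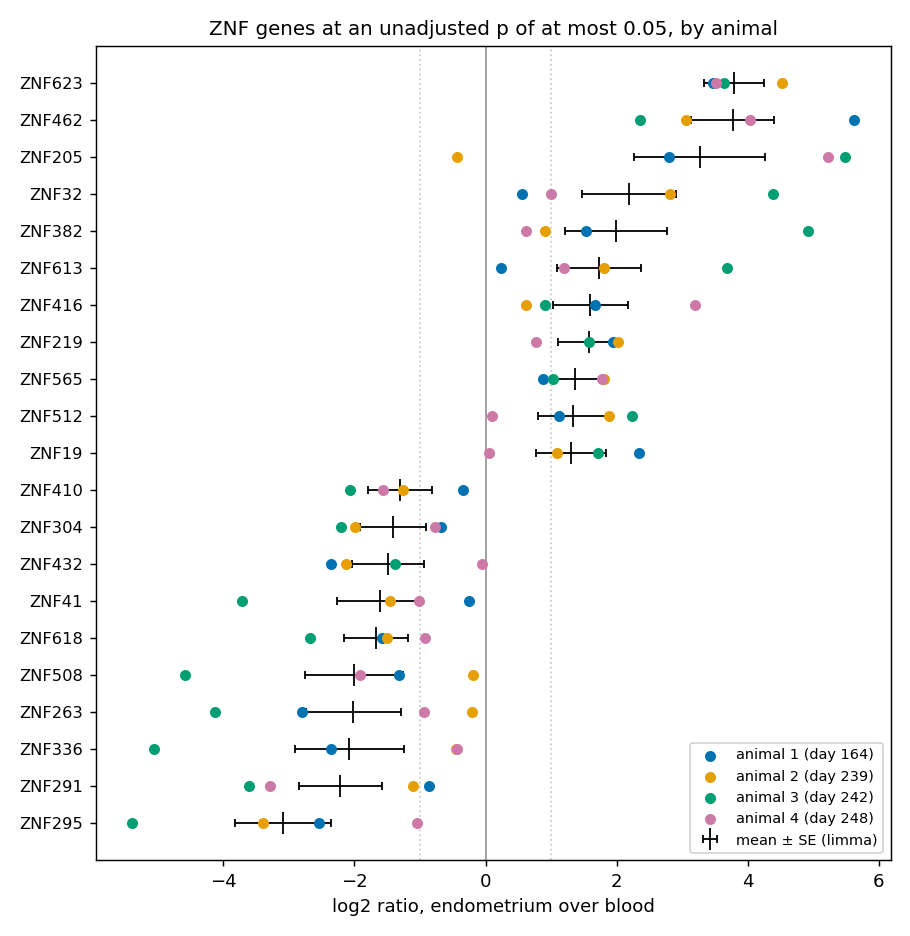
Log2 ratio of endometrium over blood (x axis) of 21 ZNF genes (y axis), 20 with 1 sign in 4 of 4 animals, and ZNF205. Colored points are the 4 animals and black marks are means with limma's SE. The points of ZNF623 lie between 3.48 and 4.53, and animal 3 is the lowest point of ZNF295, ZNF291, ZNF336, ZNF263, ZNF508, ZNF618 and ZNF41.

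The direction was the same in all 4 animals in 38 genes, 13 higher in endometrium (7.56%, background 9.82%) and 25 higher in blood (14.5%, background 15.2%). Endometrial values all lay above blood values in 5 genes (2.91%, background 2.7%), and blood values all lay above endometrial values in 4 (2.33%, background 3.37%). The 5 were ZNF623, ZNF462, ZNF32, ZNF382 and ZNF613. The 4 were ZNF336, ZNF451, ZNF508 and ZNF592, of which ZNF592, chosen after its values were seen, had log2 ratios of -0.10, -0.30, -3.92 and -0.29.

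The family as a whole had a median log2 ratio of -0.23, against -0.14 over all probes tested, and 65 of 172 genes (37.8%, background 43.3%) had a ratio above 0 and 107 (62.2%, background 56.7%) one below 0. The middle 50% of the genes lay between -0.79 and 0.34. By animal, in the order 1 to 4, the median was 0.16, -0.15, -0.58 and -0.14. Animal 1 was thus the only one of the 4 with a positive median, and animal 3 was the lowest. Over all probes, the medians of the same animals were -0.24, -0.10, -0.13 and -0.05, so the ZNF median lay above that of all probes in animal 1 and under it in the others. With the offset of 50, the ZNF median was -0.04 and the median of all probes -0.02. The 2 arrays of an animal gave much closer values than the animals did, with a median difference of 0.13 to 0.23 for a ZNF ratio, against a median SD of 1.12 over animals.

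**Figure D3:**
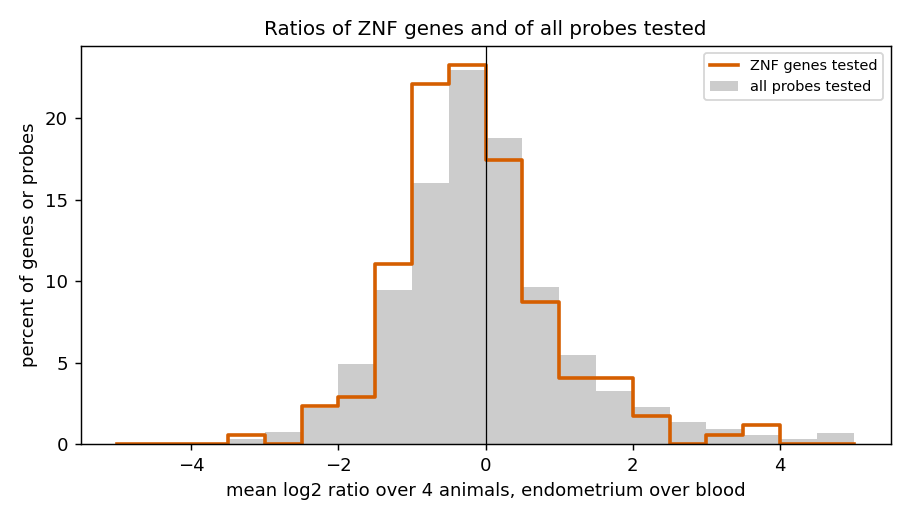
Percent of the 172 ZNF genes tested (line) and of the 16653 probes tested (gray bars) in steps of 0.5 of the mean log2 ratio of endometrium over blood (x axis). Ratios beyond -5 or 5 are counted in the outermost step. The line follows the bars for most steps, with 22.1% of ZNF genes and 16% of probes between -1 and -0.5.

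**Figure D4:**
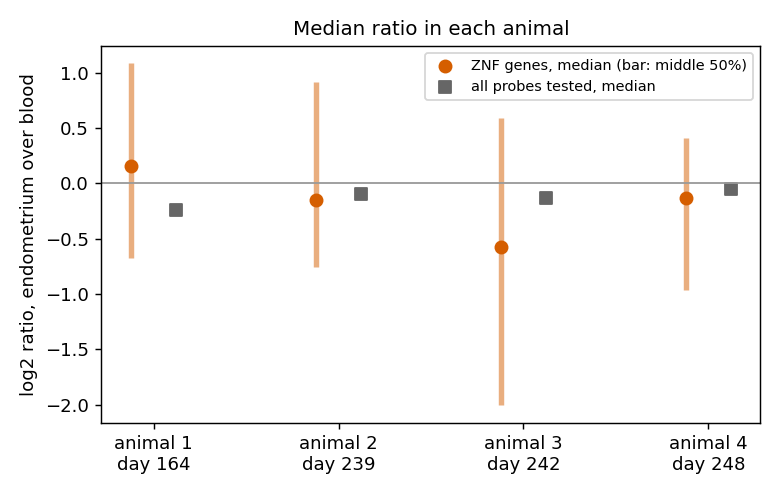
Median log2 ratio of endometrium over blood (y axis) of ZNF genes tested (circles, with bars for the middle 50% of genes) and of all probes tested (squares) in each animal (x axis, with day of pregnancy). The ZNF medians run from -0.58 in animal 3 to 0.16 in animal 1, and the medians of all probes from -0.24 to -0.05.

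The DNA-binding regulators and chromatin partners among them formed a list of 33 names, of which 24 were on the array and 20 were tested. ZNF462 was the only one called (background 1.35%), and 6 were nominal (background 16%), with ZNF462 and ZNF219 higher in endometrium (background 7.98%) and 4 in blood (background 8.05%). Their median log2 ratio was -0.03. The 4 members furthest from 0 were ZNF462, ZNF295, ZNF618 and ZNF219, in both directions. ZNF423, which commits cells to the fat lineage, had one of the largest spreads between animals, with 13.69, 7.26, 9.90 and 2.84 in the endometrium and 9.22, 7.81, 7.24 and 7.38 in blood. Its log2 ratio of 0.52 did not differ from 0 beyond that spread (SE 1.36, limma's adjusted p = 0.890). ZNF37A and ZNF553 had the next largest SD of the ratio among the genes tested, with ratios from -1.86 to 6.09 and from -4.72 to 3.44. At each of these 4 extremes, 1 of the tissues was not well above background. For ZNF37A it was the endometrium of animal 4 and the blood of animal 2, and for ZNF553 the endometrium of animal 3 and the blood of animal 1. The 2.84 of ZNF423 in the endometrium of animal 4 was not well above background either, so these spreads are not measured sizes.

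The members that act on RNA, ribosomes, ubiquitin or mitosis were 20 names, 13 on the array and 11 tested, and none was called (background 1.35%) or nominal (background 16%). Their median log2 ratio was -0.41, and 7 of 11 were below 0, where 56.7% of all probes tested were. ZNF598, the ubiquitin ligase that marks collided ribosomes, had log2 ratios of -0.78, -0.80, -1.22 and -0.65 in animals 1 to 4, a narrow range for this data set, with a mean of -0.86 ± 0.44 (SE, limma's adjusted p = 0.379). ZNF451, a SUMO ligase, ZNF207, the spindle protein BuGZ, and ZNF622, a factor of ribosome assembly, had log2 ratios of -1.03, -1.01 and -0.95. Blood was higher in 4 of 4 animals for ZNF451 and ZNF207 and in 3 of 4 for ZNF622. The 141 genes tested that were in neither list had a median of -0.23, with 1 called (background 1.35%).

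The partners of KRAB proteins in silencing were read from 23 other names, of which 21 were on the array and tested. None was called (1.35% of all probes tested were), and 1 was nominal (background 16%). TRIM28, the corepressor itself, had a log2 ratio of -0.65 ± 0.50, SETDB1 one of 0.40 ± 0.50, and CBX5 (HP1 alpha) one of 0.52 ± 0.47 (SE, limma's adjusted p of 0.560, 0.743 and 0.631). The nominal gene was CBX1 (HP1 beta), whose log2 ratios in animals 1 to 4 were 3.94, 1.77, 1.77 and 0.79, all toward the endometrium, with a mean of 2.07 and limma's adjusted p of 0.205. The DNA methyltransferase DNMT3B was higher in animals 1, 2 and 4 (4.10, 3.91 and 3.76) and lower in animal 3 (-3.88), with a mean of 1.97 and limma's adjusted p of 0.507. It was called without animal 3, the one that went the other way (log2 ratio 3.92, limma's adjusted p = 0.0401), but only 3 of 8 blood channels showed the probe well above background, none of them of animals 1 and 2, so the size of these ratios is not measured. In animal 3 the endometrial probe of DNMT3B was not well above background, so the -3.88 is not a measured size either. MPHOSPH8, a subunit of the HUSH complex, and HDAC2 had log2 ratios of -1.15 and -0.99. MPHOSPH8 was higher in blood in 4 of 4 animals. HDAC2 had ratios of 0.60, -0.86, -4.08 and 0.39 in animals 1 to 4, and its endometrial probe in animal 3 was not well above background.

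The brightest ZNF probes belonged to ZNF428, ZNF75, ZNF259 (ZPR1), ZNF638 and ZNF238 (ZBTB18), a brightness that depends on the probe as well as on the RNA. Their log2 ratios ran from -0.66 to 0.64, and none differed from 0 beyond its spread (limma's adjusted p between 0.552 and 0.989). Genes with other zinc finger names (ZBTB, ZFP, ZSCAN, ZKSCAN or ZIK with a number) served for comparison. Of 41 on the array 36 were tested, and none was called (background 1.35%). Their median log2 ratio was -0.25 with 14 above 0 (38.9%, background 43.3%), values close to those of the ZNF genes. A test of the difference between the families was not made.

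Where a gene had 2 probes, they did not always give the same answer. The brighter probe of ZNF205 stood at 15.05, 9.79, 15.04 and 12.98 in the endometrium of animals 1 to 4 and at 12.25, 10.23, 9.55 and 7.75 in blood. It was higher in the endometrium in animals 1, 3 and 4 and not in animal 2, with a log2 ratio of 3.27 ± 1.00 (SE, limma's adjusted p = 0.213) that was 4.51 without animal 2. The second probe, whose description gives the symbol ZNF213, had a ratio of 0.21, and whether both probes measure 1 gene is not settled by the files. ZNF238 gave 0.64 and -0.83 and ZNF189 gave -0.16 and -1.62, in each case with the dimmer probe lower, while the probes of ZNF326 and of ZNF644 differed by 0.14 and 0.24. The dimmer probes of ZNF238 and ZNF189 were each well above background in 6 of 8 endometrial and 8 of 8 blood channels. In the gene order of the reference table, 153 members could be placed, and 10 of them formed 5 pairs of direct neighbors. ZNF205 stood beside ZNF206, which had a log2 ratio of -0.07.

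Many ratios were smaller in the renormalized scanner intensities, where background correction, offset and normalization all differed from the authors' table and their parts were not separated. Of the 172 genes tested, 162 kept their sign with the offset of 50, and of the 25 nominal genes all 25 did, but 12 of them kept a fold over 2 and 10 remained nominal. These 10 were ZNF161, ZNF205, ZNF219, ZNF281, ZNF295, ZNF304, ZNF32, ZNF432, ZNF462 and ZNF512. None was called on that scale, where 11 of all 16651 probes tested were.

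**Figure D5:**
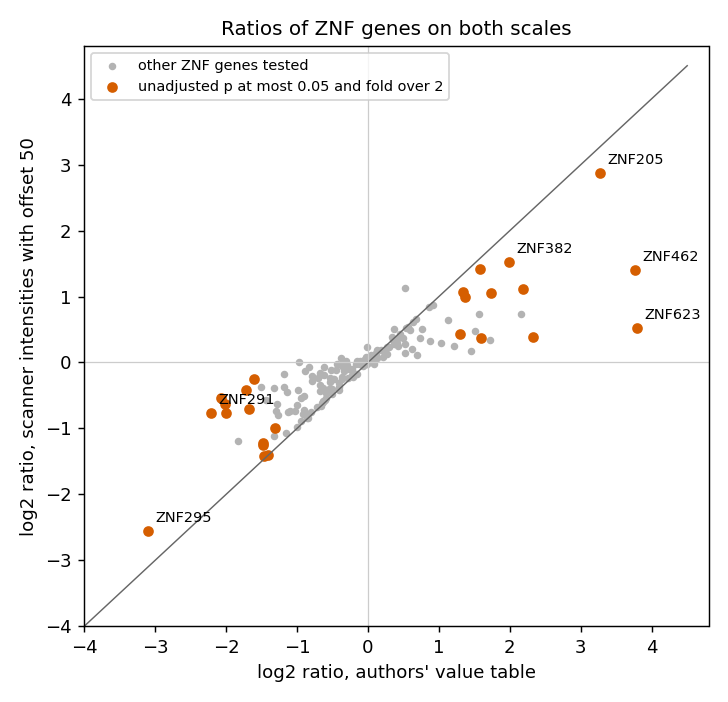
Log2 ratio of endometrium over blood of the 172 ZNF genes tested in the authors' table (x axis) and from scanner intensities normalized with an offset of 50 (y axis), with the 25 nominal genes in orange and the line of equal values. ZNF205 and ZNF295 lie near the line, while ZNF623 has 3.79 on one scale and 0.53 on the other.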

How the data were processed

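RNA of CD14+ cells was compared on 8 dual-channel Agilent arrays. The authors deposited for each spot and dye an intensity, its local background and a processed intensity, with a flag for signal well above background (software version 10.5.1.1 in the file headers, 9.5 in the submitters' processing notes). The authors' value table holds log2 values, which per the methods had passed lowess in each array and quantile normalization of the 16 channels.

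Each column of that table equaled, at 100% of probes within 0.001, the channel, named by its label, in the file deposited with the partner technical replicate of that animal (at most 0.689% for any other channel), and flags were read accordingly. Spots of a probe were averaged, no spot was saturated, and precision is limited by the number of arrays. A probe was well above background in a channel if every spot was, a rule settled after counts under it and under an alternative had been seen. All sample columns of the value table were used.

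Ratios (log2, endometrium over blood) were averaged over the 2 arrays of an animal, and limma 3.58.1 (R 4.3.3, statmod 1.5.0) tested it against 0 over 4 animals on all probes. An exact permutation test over 4 animals cannot give a p under 0.125. Tissues were paired by the animal number of the labels, and their deviations from the tissue means had correlations of 0.628, 0.372, 0.239 and 0.452 (animals 1 to 4). Each of 2 slides, taken here as the 2 technical replicates, carried 1 array of each animal. Bounds used the lowest value of a probe well above background in each channel. The limma fit of ratios against 0 was tested on simulated data, and the other fits were not. Figures and tables were made in Python 3.11.15.

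The members and the lists were chosen with earlier results of these data known. Genes were named by rule: those called, up to 10 per direction with the largest ratio among nominal genes (p before adjustment of 0.05 or less, fold over 2) with 1 sign in 4 animals, the 5 brightest, the 3 with the largest spread, up to 4 of each list, up to 3 genes whose probes differed most, and those nearest a fold of 2. ZNF518 and ZNF385 on the array were taken as ZNF518A and ZNF385A. Classes by KRAB domain or number of fingers were planned but not run, since no protein sequences were used here. Alternatives changed the normalization (from scanner intensities, normexp with an offset of 50, loess within arrays and quantiles), the filter, the pairing, the slide, the dye term, the test and the animals.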

Additional observations from a re-analysis of the deposited data

Results flagged for a closer look

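Among 103 sets of 4 animals examined for the ZNF genes named, 5 (4.85%) held 1 value separated from the other 3 by a gap above Dixon's critical value, and chance alone gives about 1 in 20. ZNF623 had a log2 ratio of 4.53 in animal 2, against 3.48 to 3.64 in the others. In the endometrium of animal 3, ZNF382 stood at a log2 value of 13.48 and ZNF613 at 11.52, against 9.42 to 10.09 and 8.76 to 8.84 in the other animals. ZNF219 stood at 14.46 in the endometrium of animal 1, where the others were at 11.63 to 11.88. ZNF207 stood at 12.16 in the blood of animal 1, where the others were at 13.53 to 13.61. The cause of these values was not tested.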

How the results depend on the processing

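The main count of 2 ZNF genes called became 0 with scanner intensities under normexp (0 also with quantiles of the average intensity, an alternative chosen after seeing the data), 0 by the analysis of variance of the methods, and 1 each with processed signals, without a filter, with no replicate block (no pairing of the tissues), with a dye term and within the slide of technical replicate 1. It was 0 without any 1 of the animals 1, 2, 3 and 4 (range 0 to 0). The 25 genes at an unadjusted p became 10 with normexp (5 higher in endometrium), 12 with quantiles of the average (7 higher), 14 with no replicate block (7 higher), 9 by the analysis of variance, and 11 to 20 with 1 animal left out, the fewest without animal 3. The 13 genes higher in endometrium in all animals became 16 to 27 with 3 animals, the most without animal 4, and the KRAB partners called 0 to 1. With 0 genes called by that analysis of variance over all probes, 1229 were at an unadjusted p of at most 0.05 with a fold over 2, and without animal 4 limma called 0 of all probes with 2674 at that p. Signal well above background on any spot, also chosen after seeing the data, left the counts at 2 and 25. The median ratio of the ZNF genes lay between -0.40 and -0.01 under all alternatives and so moved by less than its spread over animals (SD 0.303).

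Of 540 values of the 34 genes named, 8 changed sign, none of them of a gene called: ZNF259 (-0.020 on slide 1, and -0.17 to 0.21 with an animal left out, lowest without animal 3), ZNF423 (-0.80 to 2.2, below 0 without animal 1 or 3), ZNF553 (-0.66 to 2.06, below 0 without animal 1 or 4), ZNF189 (-0.43 to 0.047 with an animal left out, above 0 without animal 2, and -0.89 as the mean of its probes) and ZNF238 (-0.10 as the mean of its probes). ZNF623 lost its call in 8 of 16 alternatives and ZNF462 in 11 of 16, with limma's adjusted p from 0.00535 to 0.341 and from 0.0160 to 0.464. The cause was not tested.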
